A study of Mus musculus with 20 samples.

Results

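The comparison described here set the nucleus pulposus (NP) of ank mutant mice against the NP of wild-type (WT) mice, gene by gene and array by array. It rested on 10 of the 20 arrays of the series, namely 5 NP arrays of ank mice, numbered 31, 34, 39, 41 and 48, and 5 of WT mice, numbered 32, 33, 53, 55 and 59. Each array held the RNA of 1 mouse, pooled over that animal's discs, and the remaining 10 arrays held the annulus fibrosus (AF) of the same animals. The ank mice carried the progressive ankylosis allele in both copies, bred from heterozygotes of the C3FeB6 A/Aw-J-Ank ank/J stock, and the WT mice came from the same litters. All were 13 weeks old, and each genotype comprised 2 males (31 and 48 among ank mice, 32 and 59 among WT mice) and 3 females. The labels place the discs in the lumbar and caudal spine, whereas the study's methods name caudal discs. The allele is germline, so it was carried by every cell of the animal and not by the NP alone. The 5 mice of a genotype were separate animals, and levels of the Ank transcript itself were not analysed here. In whole tissue, fewer cells of a type and less RNA per cell cannot be told apart.

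The NP is the gelatinous core of the intervertebral disc. Its cells descend from the notochord, live without blood vessels and far from an oxygen supply, depend on glycolysis with active hypoxia-inducible factors (HIFs), and keep up a matrix of aggrecan, whose chondroitin sulfate chains hold water under load. ANK is a membrane protein through which cells release ATP, the source of extracellular pyrophosphate, and citrate. Pyrophosphate restrains mineral deposition, and mice without ANK function mineralize and fuse their joints and spine. The comparison asks which transcripts differ in the NP of mice whose ANK function is attenuated.

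The arrays were Clariom S arrays for mouse, and each value is a log2 level, so that a difference of 1 is a factor of 2 in signal. Levels of different genes were not compared with one another. A gene was tested when it lay above an array's background in at least 5 of the 10 NP arrays, where background was the 95th percentile of 1425 odorant, vomeronasal and trace amine receptor genes, which are taken to be silent in disc tissue. This left 6341 of 19505 genes. Background lay between 6.81 and 8.26 in ank arrays and between 6.98 and 7.92 in WT arrays. By the study's methods the RNA integrity number (RIN) was around 5. Arrays differed in quality within both genotypes. The area under the curve that separates 1324 positive from 5222 negative control probe sets was lowest in ank 34 and ank 48 (0.71 each) and highest in WT 32 (0.789), and the ank arrays had 4003 to 7429 genes above background, against 4723 to 7263 in WT arrays. Spike-in signal divided the arrays into 2 sets, with ank 31, 34 and 39 beside WT 32, 33 and 53 in one and ank 41 and 48 beside WT 55 and 59 in the other.

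The tissue identity of the samples was checked first. Krt19 and Cd24a, markers of NP cells, and Acan, the aggrecan gene, were far above background in every array. Krt19 measured 17.05 to 17.98 in ank NP and 17.55 to 18.08 in WT NP, and Cd24a 18.82 to 19.32 in ank NP and 18.94 to 19.71 in WT NP. Acan ran from 19.22 to 19.76 in ank NP and from 19.51 to 19.80 in WT NP, close to the array's ceiling of 19.93, where a difference can no longer be read. Of 18 NP and notochord genes, 10 were tested and none passed the study's thresholds, although Foxa2 was above background in no array, Shh in 3 WT arrays alone, and Noto in 1 of the ank arrays and 2 WT arrays. Of markers of other tissues, none of 17 skeletal muscle, 8 osteoblast, 9 endothelial or 12 neutrophil and marrow genes was above background in 5 arrays. Tested were 3 of 14 AF and tendon, 2 of 9 hypertrophic chondrocyte and endplate, 2 of 12 macrophage and osteoclast, and 2 of 4 red blood cell genes. The AF and tendon list averaged 6.86 to 7.02 in ank arrays and 6.81 to 7.92 in WT arrays, highest in WT 55 and WT 32, while its defining genes Scx, Tnmd and Mkx were above background in no array. Single arrays carried bone transcripts. Ibsp, the gene of bone sialoprotein, was above background in ank 34 (9.28), and in WT 32 (10.41) and WT 55 (11.93). WT 55 alone was above background for the osteoclast phosphatase Acp5 (10.86) and the proteases Mmp13 (10.01) and Mmp9 (8.73).

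At the thresholds the study used, an unadjusted p under 0.05 and a change of at least 1.75-fold, 32 genes were higher in ank NP (0.505% of those tested) and 178 were lower (2.81%). No gene passed an adjusted p of 0.05 (limma with Benjamini-Hochberg adjustment, 0% of 6341 genes, smallest adjusted p = 0.709). An unadjusted p under 0.05 was reached by 269 genes, 45 higher and 224 lower, where 317.05 would reach it with no difference between the genotypes. Each gene is therefore described by its arrays, and "at the thresholds" refers to the study's unadjusted rule. The adjusted p was 0.709 for Lepr, 0.865 for Adm and 0.973 for the other 208 genes at the thresholds. The preponderance of lower genes depended on scaling and on the filter. As deposited, 84.8% of the genes at the thresholds were lower. The share was 66.8% after quantile normalization (65 higher, 131 lower) and 70.4% after centring each array on its median (63 higher, 150 lower). With no filter on dim genes it was 60.8% (162 higher, 251 lower). With background set by antigenomic control probe sets it was 64.6% (134 higher, 245 lower). The study's own detection filter was not used, so its gene counts are not those given here. Across all genes tested the median difference was -0.11, and 62.2% lay below WT. The plot of differences against p shows this asymmetry.

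**Figure D1:**
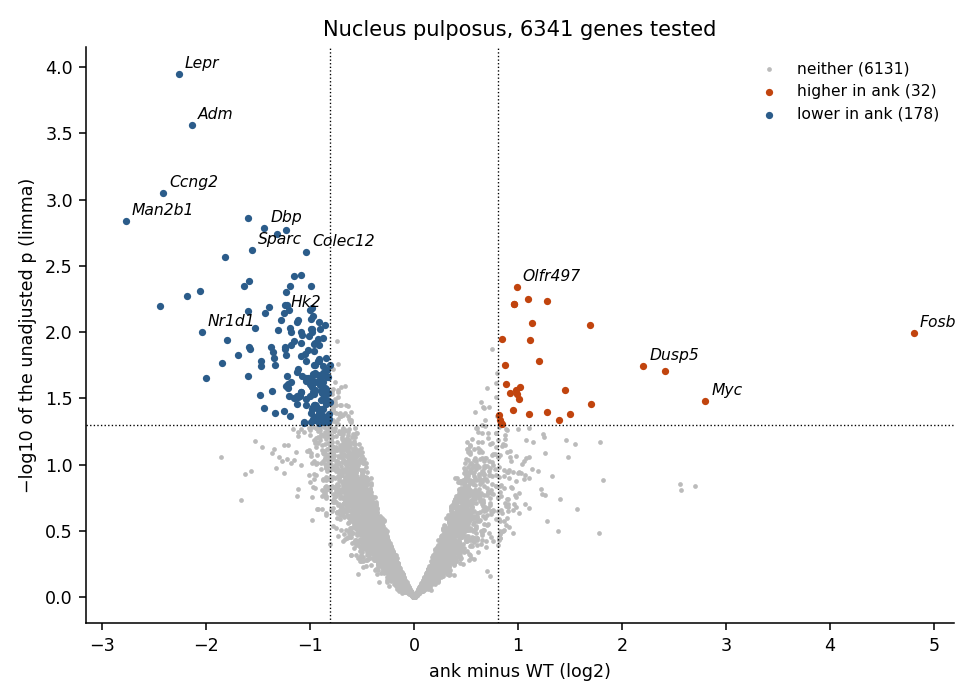
Each point is 1 of 6341 genes, with the ank minus WT difference (log2) on the horizontal axis and -log10 of the unadjusted limma p on the vertical axis. The dotted lines mark a p of 0.05 and a 1.75-fold change. The 32 higher genes (orange) spread out to Fosb at 4.81, and the 178 lower genes (blue) form a denser wing with Lepr at its top.

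The higher and lower genes stood differently to background. Of the lower genes, 96 of 178 were above background in all 10 arrays, whereas 11 of the 32 higher genes were. For 82 of the 178, fewer ank than WT arrays were above background. The presumed silent receptor genes give a view of what dim signal did: 71 of them entered the test, their median difference was 0.51, and 3 were higher at the thresholds (Olfr497, Olfr549 and Vmn1r112) and 1 lower (Olfr153). Seen by array, ank 48 was the lowest of all 10 arrays for 104 of the 178 lower genes and ank 34 for 33, while WT 53 was the highest for 99. Control AUC was lowest in ank 34 and ank 48 (0.71 each), and WT 53 had 0.767. Ank 41, at 0.785, was the lowest array for 27 lower genes. WT 32, at 0.789, was the highest array for 18. The part of array quality in the lower genes was not tested. With control AUC as a covariate, 164 genes were lower (156 of them among the 178) and 86 higher (31 of them among the 32). Without ank 34 and ank 48, a choice made after seeing the data, 79 genes were lower and 72 higher, of which 61 and 14 were also called with all arrays.

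The 2 genotypes did not overlap in 35 lower genes (0.552% of genes tested) and 13 higher genes (0.205%), of which 20 and 3 also met the thresholds. Among 6341 genes, with 5 arrays a genotype, some would separate in this way with no difference between the genotypes. How many would do so was not computed, so whether 35 and 13 exceed chance was not tested. A lack of overlap therefore describes a gene's arrays and is not by itself a sign of a difference. The clearest separation by p was that of Lepr, the receptor for leptin. Lepr measured 10.56, 8.92, 8.68, 9.60 and 8.75 in ank arrays 31, 34, 39, 41 and 48, against 10.97, 12.66, 11.75, 11.14 and 11.30 in WT arrays 32, 33, 53, 55 and 59, and this order of arrays is kept wherever values are listed. All 5 ank arrays lay below all 5 WT arrays, and Lepr averaged 9.30 ± 0.79 over the ank mice and 11.57 ± 0.68 over the WT mice (SD, n = 5 each), a difference of -2.26 (SE 0.43). Adm encodes adrenomedullin, a peptide hormone whose transcript is a well known target of HIF-1. Adm read 10.92, 11.49, 10.65, 9.24 and 10.06 in ank NP, against 12.63, 11.61, 13.07, 13.38 and 12.33 in WT NP. These did not overlap either, although ank 34 and WT 33 came within a fraction of a log2 unit, and the difference was -2.13 (SE 0.44). Both genes kept their call whichever array was left out.

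Other genes without overlap had varied roles. Epha4, an ephrin receptor, measured 10.09, 10.98, 10.73, 9.47 and 7.11 in ank NP and 11.34, 11.09, 12.63, 11.24 and 11.06 in WT NP. Its difference of -1.80 drew on a very low ank 48 and a high WT 53. Colec12, a scavenger receptor of the collectin family, was the most even, at 13.05, 12.48, 12.53, 12.64 and 12.56 in ank NP against 13.59, 13.43, 13.81, 14.29 and 13.33 in WT NP (difference -1.04, SE 0.28). Ank 31 came nearest to WT for Colec12, below WT 59, the lowest WT array. Dsc2, a desmosomal cadherin, differed by -1.31, and Adgrg6, an adhesion G protein-coupled receptor known for its role in spinal development, by -1.09. Adk, which phosphorylates adenosine (-1.12), the nuclear protein Anp32a (-1.08), the ubiquitin ligase Uhrf2 (-0.995) and Cacybp (-0.98) did not overlap either. Adgrg6 and Adk were above background in 2 of the ank arrays and Uhrf2 in 1, so the size of these differences is uncertain.

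The widest differences among genes that stayed at the thresholds through all 10 leave-outs belonged to a mixed group. Man2b1, a lysosomal mannosidase, differed by -2.77, although it exceeded background in ank 48 alone among the ank arrays, which leaves the size of its difference uncertain. H1f2, a linker histone, differed by -2.44, Ccng2, an atypical cyclin of quiescent cells, by -2.41, and Fam135b by -2.18. Ccng2 measured 11.75, 12.86, 11.69, 9.70 and 10.70 in ank NP, against 13.06, 14.07, 14.66, 14.54 and 12.43 in WT NP, and ank 34 alone reached into the WT range, above WT 59. Plekhb1 (-2.06), the peptide hormone gene Cck (-1.85) and Cdh6, a cadherin (-1.82), followed. Cdh6 was bright in every array, at 14.06, 12.18, 14.51, 13.98 and 12.50 in ank NP and 15.46, 15.48, 16.09, 15.36 and 13.95 in WT NP, where only WT 59 fell among the ank arrays. In males alone, with 2 arrays a genotype, the difference was -0.03 for H1f2 and 0.07 for Fam135b, and a difference between the sexes was not tested.

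Genes of the oxygen-sensing pathway came next. Prolyl hydroxylases of the Egln family mark HIF subunits for degradation, and HIFs that escape them raise genes for glycolysis, angiogenic peptides and collagen-modifying enzymes. Of 23 genes on the HIF and oxygen-sensing list, 19 were tested, 18 lay below WT, and 5 were lower at the thresholds with none higher, against 2.81% and 0.505% of all genes. The list's median difference was -0.49, against -0.11 over all genes tested, and -0.31 without ank 34 and ank 48. Several list members in the sections on oxygen, sugar metabolism, matrix, clock and sorting were picked out by the study on these same arrays, so their counts are not independent evidence of a direction. Beside Adm, the lower genes were Egln3 (-1.53), Jmjd8, which encodes a JmjC domain protein (-1.19), Epas1, the gene of HIF-2 alpha (-1.13), and Bnip3l, a receptor for the removal of mitochondria (-0.88). Egln3 measured 15.80, 13.65, 13.41, 13.10 and 12.60 in ank NP and 15.70, 14.95, 15.66, 15.38 and 14.53 in WT NP. Of the ank arrays, 4 lay below all WT arrays and ank 31 lay above all of them. Bnip3l did not overlap between genotypes, at 12.85, 13.16, 13.30, 13.37 and 12.02 in ank NP and 14.41, 13.59, 14.13, 13.59 and 13.38 in WT NP, with ank 41 and WT 59 almost touching. Hif1a, the oxygen-labile subunit of HIF-1, differed by -0.20 (SE 0.33).

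Glycolytic genes formed a similar picture. Of 23 genes, 20 were tested, 19 lay below WT (62.2% of all genes tested did) and 4 were lower at the thresholds (2.81% of all genes tested were), with a list median of -0.37, or -0.18 without ank 34 and ank 48. Hk2, the inducible hexokinase that starts glycolysis, measured 9.66, 9.50, 10.06, 10.20 and 9.68 in ank NP and 11.49, 9.71, 11.93, 11.55 and 10.66 in WT NP. Its ank arrays were tightly grouped, and WT 33 was the only WT array among them (difference -1.25, SE 0.40). Pfkl, the liver-type subunit of phosphofructokinase, measured 9.23, 11.12, 10.52, 9.42 and 9.07 in ank NP and 11.44, 11.04, 12.22, 10.77 and 10.85 in WT NP (difference -1.39, SE 0.44), with ank 34 inside the WT range. Pdk1, the kinase that keeps pyruvate out of mitochondria, had no overlap: 10.45, 10.99, 11.53, 11.53 and 10.04 in ank NP against 12.02, 11.63, 12.72, 11.68 and 11.61 in WT NP. The margin between ank 41 and WT 59 for Pdk1 was narrow, and the difference was -1.02 (SE 0.36). Pgam1, a phosphoglycerate mutase, differed by -0.98, and its lowest value, 8.12, came from ank 48. By contrast, 62 tested subunits of mitochondrial oxidative phosphorylation had a median of -0.05 and no gene at the thresholds.

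The promoters of the oxygen and glycolysis genes are shown because these genes share a regulator by textbook knowledge, and because several of them were low together. Sequence came from RefSeq (mouse build GRCm38.p6), taking the 250 bases before each annotated start, 5′ to 3′ on the gene's strand, and was searched on both strands for ACGTG, the core of the hypoxia response element. Of 13 genes lower at the thresholds on the oxygen, glycolysis and collagen-modification lists, 9 had a window, and 4 of these held the core: Egln3, Hk2, P4ha2 and Pgam1. Among 32851 promoter windows of this length, 16.6% held it. The core is also part of the E-box CACGTG, so a match is a description and not a bound site. Capitals mark the core on either strand. The windows lie at chr12:54203875-54204124 for Egln3 (minus strand), chr6:82774455-82774704 for Hk2 (minus strand) and chr11:54100674-54100923 for P4ha2 (plus strand).
Egln3: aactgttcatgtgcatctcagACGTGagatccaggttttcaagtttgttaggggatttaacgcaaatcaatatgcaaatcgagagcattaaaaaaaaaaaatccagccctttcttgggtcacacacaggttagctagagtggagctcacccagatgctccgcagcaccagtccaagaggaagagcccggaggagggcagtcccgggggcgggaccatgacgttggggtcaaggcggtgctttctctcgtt
Hk2: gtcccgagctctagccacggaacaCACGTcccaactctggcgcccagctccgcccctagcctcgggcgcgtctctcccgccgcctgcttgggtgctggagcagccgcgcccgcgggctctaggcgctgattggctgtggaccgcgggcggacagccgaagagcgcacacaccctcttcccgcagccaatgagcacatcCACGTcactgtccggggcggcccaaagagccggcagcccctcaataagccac
P4ha2: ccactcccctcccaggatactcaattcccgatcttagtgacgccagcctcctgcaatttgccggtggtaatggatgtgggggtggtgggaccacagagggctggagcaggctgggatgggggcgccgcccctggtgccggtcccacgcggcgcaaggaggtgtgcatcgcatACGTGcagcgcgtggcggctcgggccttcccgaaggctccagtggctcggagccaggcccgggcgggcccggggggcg
Hk2 carried 2 cores, and Egln3 and P4ha2 carried 1 each. Egln3, Hk2 and P4ha2 all differed by more than 1 log2 unit between genotypes.

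The matrix genes were uneven. Small leucine-rich proteoglycans and matricellular proteins organize collagen fibrils around disc cells, and of 23 such genes 13 were tested and 5 were lower at the thresholds, against 2.81% of all genes, with a list median of -0.63 (-0.53 without ank 34 and ank 48). Sparc, a collagen-binding glycoprotein that mice need for stable discs, measured 17.60, 16.06, 16.27, 16.79 and 14.90 in ank NP and 18.21, 17.52, 17.79, 17.95 and 17.93 in WT NP. The WT arrays were close together and ank 31 was the only ank array to enter their range. Sparc averaged 16.32 ± 0.99 over the ank mice and 17.88 ± 0.25 over the WT mice (SD, n = 5 each). Smoc1, a calcium-binding relative of Sparc, differed by -1.59, Fmod, the keratan sulfate proteoglycan fibromodulin, by -0.98, Ogn by -0.89 and Thbs2 by -0.87. For Fmod the values were 19.18, 18.28, 19.06, 17.47 and 16.78 in ank NP and 19.14, 19.12, 19.48, 18.95 and 19.00 in WT NP, so that ank 31 and ank 39 were at the WT level and the difference came from ank 34, ank 41 and ank 48. Hapln1, the link protein that fixes aggrecan to hyaluronan, measured 14.12, 12.74, 14.61 and 14.54 in ank 31, 34, 39 and 41 and 12 in ank 48, against 14.94, 14.76, 15.60, 14.31 and 15.11 in WT NP. Ank 39 and ank 41 lay above WT 55, and the lowest values came from ank 34 and ank 48 (difference -1.34, SE 0.49). Hapln1 was the only one of 7 tested cartilage matrix genes at the thresholds, where 2.81% of all genes were lower, though all 7 lay below WT with a median of -0.35. Col2a1 and Comp were not tested: Col2a1 exceeded background in 1 of the ank arrays and 2 WT arrays, and Comp in WT 32 alone.

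Enzymes that modify matrix molecules were also among the lower genes. Xylt1, the xylosyltransferase that attaches the first sugar of a chondroitin sulfate chain to its core protein, had no overlap at 15.72, 14.60, 15.64, 15.16 and 14.30 in ank NP, against 16.02, 16.44, 17.01, 15.91 and 16.03 in WT NP. Its difference was -1.20 (SE 0.35). Chsy3, which extends the chain, differed by -0.84 and Slc35d2, a Golgi carrier of nucleotide sugars, by -0.99, but the median of the 15 tested glycosaminoglycan synthesis genes was -0.15, close to all genes. Of 14 tested genes for collagen hydroxylation, glycosylation and crosslinking, 4 were lower (2.81% of all genes were), with a list median of -0.41. P4ha2, a collagen prolyl hydroxylase subunit, measured 9.70, 9.16, 9.73, 10.21 and 9.45 in ank NP and 10.91, 10.85, 12.02, 9.97 and 10.65 in WT NP, with WT 55 below ank 41 and no other crossing (difference -1.23, SE 0.37). The others were the collagen galactosyltransferases Colgalt2 (-1.19) and Colgalt1 (-0.99) and the lysyl oxidase relative Loxl3 (-0.89). Colgalt1, Colgalt2 and Slc35d2 exceeded background in 2 of the ank arrays each. Among collagen chains Col1a1, the main chain of fibrous tissue, differed by -1.48, at 8.51, 8.39, 8.29, 7.40 and 8.51 in ank NP and 10.29, 9.46, 8.42, 12.13 and 8.19 in WT NP. The excess of Col1a1 was in WT 32, WT 33 and WT 55, most of all in the last, and WT 59 lay below 4 of the ank arrays. Marker lists moved with Col1a1. The AF and tendon list, which itself holds Col1a1, averaged 7.92 in WT 55 and 7.70 in WT 32, and the osteoblast list 6.81 in WT 55 and at most 5.93 in any ank array. Ibsp was high in WT 32 and WT 55 and Acp5 and Mmp13 in WT 55, and the part of bone or fibrous tissue in the Col1a1 difference was not tested. No metalloproteinase, ADAMTS or TIMP gene was at the thresholds among 6 tested.

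**Figure D2:**
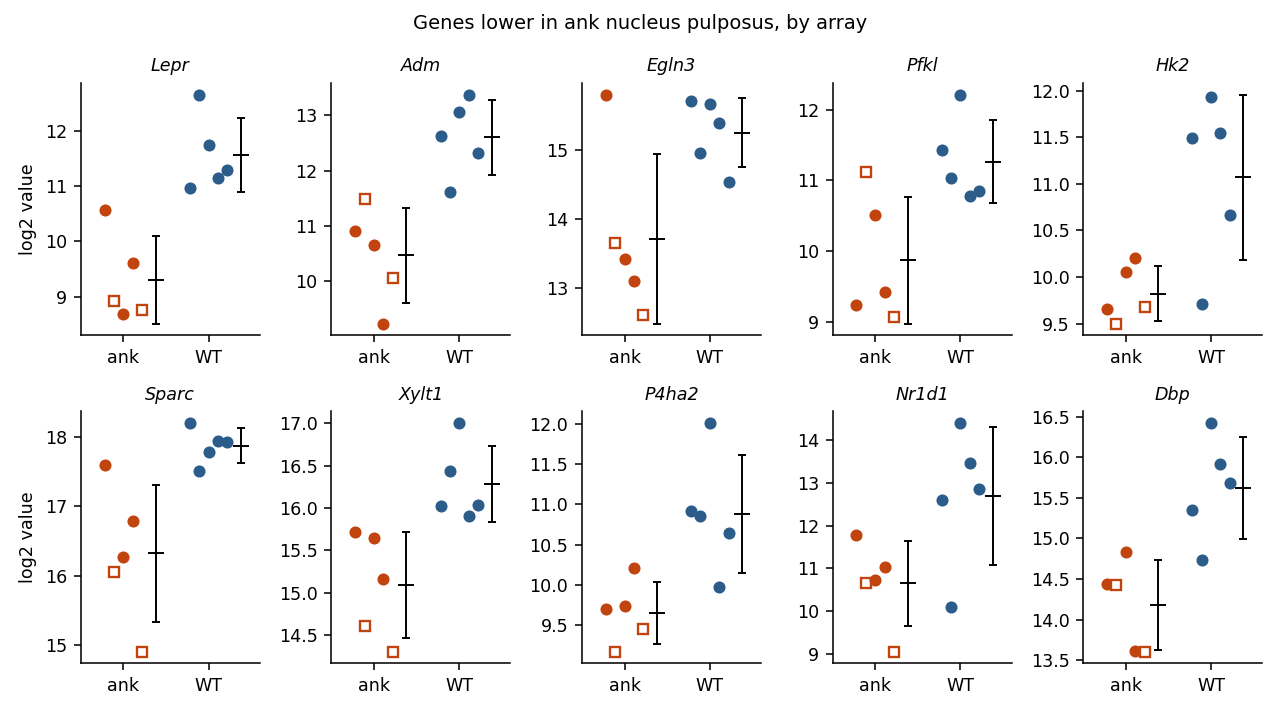
Log2 values of 10 genes lower in ank NP, ank arrays on the left and WT arrays on the right of each panel, each point 1 mouse. Black bars give the mean ± SD (n = 5 each), and open squares are ank 34 and ank 48, the arrays of lowest control AUC. Lepr, Adm and Xylt1 have no overlap, while Egln3 has 1 ank array above every WT array.

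Clock output genes were among the lower transcripts. The circadian clock runs on the activators BMAL1 (gene Arntl) and CLOCK, which drive genes such as Per1, Nr1d1 and Dbp through E-boxes, and on repressors that feed back on them. Of 13 genes that peak together with Per and Nr1d1, 10 were tested, 8 lay below WT and 3 were lower at the thresholds, against 2.81% of all genes. Their median was -0.98, against -0.11 for all genes, and -0.57 without ank 34 and ank 48. Nr1d1, which encodes the repressor REV-ERB alpha, measured 11.77, 10.66, 10.72, 11.03 and 9.04 in ank NP and 12.61, 10.09, 14.41, 13.48 and 12.86 in WT NP (difference -2.04, SE 0.69). All WT arrays but WT 33 were above every ank array, and WT 33 was below 4 of the ank arrays. Dbp, a transcription factor driven directly by the clock, measured 14.43, 14.42, 14.83, 13.61 and 13.60 in ank NP and 15.35, 14.74, 16.42, 15.91 and 15.68 in WT NP, again with WT 33 the lowest of its group and just under ank 39. Its difference was -1.44 (SE 0.37). Bhlhe41, a repressor of the E-box, differed by -1.13 (SE 0.48), with ank 31 and ank 34 inside the WT range. Without ank 34 and ank 48, Dbp (-1.33) kept its call, and Nr1d1 (-1.52) and Bhlhe41 (-1.12) did not. In that fit 1 gene of the list was higher at the thresholds. Per3 differed by -0.98 (SE 0.46) and just missed the p threshold. The genes in antiphase showed no counterpart at the thresholds: 4 of 6 were tested and none was called. Their median was -0.08 (0.03 after quantile normalization), with Arntl at 0.29 and Clock at -0.33. Without ank 34 and ank 48 their median was 0.29, again with none called. Arntl was then at 0.33, Rora at 0.33, Clock at 0.26 and Nfil3 at -0.40. WT 53 had the highest mean over the Per and Nr1d1 list (14.07) and WT 33 one of the lowest (11.50, equal to ank 34). The AUC of WT 33 was 0.725, the lowest among WT arrays.

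Bhlhe41 was the only one of the 3 clock genes with the full E-box CACGTG in its 250 bases, a motif held by 6.02% of the 32851 windows. Its window, at chr6:145865421-145865670 (GRCm38.p6, minus strand), is printed for that reason, with the E-box in capitals.
Bhlhe41: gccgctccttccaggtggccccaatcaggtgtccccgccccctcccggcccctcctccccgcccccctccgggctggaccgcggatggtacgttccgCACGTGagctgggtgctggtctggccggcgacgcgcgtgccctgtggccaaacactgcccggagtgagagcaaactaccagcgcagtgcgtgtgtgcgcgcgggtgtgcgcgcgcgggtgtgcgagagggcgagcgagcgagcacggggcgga
Nr1d1 and Dbp had no such letters within this distance, which says nothing of elements elsewhere in either gene.

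Membrane sorting genes were the next group. The retromer and sorting nexins carry receptors and transporters from endosomes back to the Golgi and cell surface, and 27 of 29 such genes were tested. At the thresholds 7 were lower, against 2.81% of all genes, and the median of -0.24 became 0.02 without ank 34 and ank 48, with 3 at the thresholds. Vps35, the core of the retromer, measured 10.92, 12.09, 10.48, 10.998 and 13.15 in ank NP and 13.01, 12.40, 12.50, 12.53 and 12.64 in WT NP. The WT arrays agreed within a narrow band, 4 ank arrays lay below it and ank 48 above it (difference -1.09, SE 0.45). Snx9, a sorting nexin of endocytic pits, had no overlap, at 10.91, 11.62, 11.24, 10.39 and 10.79 in ank NP and 11.71, 11.88, 12.37, 11.80 and 11.72 in WT NP. Ank 34 came closest to WT for Snx9, and the difference was -0.90 (SE 0.30). Kif13a, an endosomal kinesin (-0.998), the Rab GTPase regulator Rabgap1l (-0.93), Stxbp6 (-0.92), Snx5 (-0.91) and Snx27, a retromer partner (-0.89), were the others. Kif13a, a dim signal, exceeded background in 1 of the ank arrays and in 4 WT arrays. Of 38 tested lysosomal genes, 4 were lower, against 2.81% of all genes. They were Man2b1, Lyst, which regulates lysosome size (-1.24), Hexa, a hexosaminidase (-1.06), and Atp6v0b, a subunit of the proton pump (-0.91). The lysosome median was -0.26, and -0.03 without the 2 arrays of lowest AUC.

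Growth factor receptors and ion carriers supplied smaller groups. All 7 tested FGF ligands and receptors lay below WT (median -0.52), and Fgf11, an intracellular FGF homologue (-1.63), and Fgfr3, the receptor that restrains cartilage growth (-1.58), were at the thresholds, where 2.81% of all genes were. Fgfr3 measured 10.95, 7.88, 9.71, 10.24 and 9.61 in ank NP and 10.40, 10.84, 12.90, 11.05 and 11.09 in WT NP, where ank 31 lay inside the WT range. Slc12a2 encodes the sodium-potassium-chloride carrier NKCC1, and Stk39 the kinase that activates it. Slc12a2 measured 16.84, 16.55, 17.11, 15.82 and 15.84 in ank NP and 17.09, 18.08, 18.64, 17.11 and 17.43 in WT NP. Only ank 39 touched the WT range for Slc12a2, and the difference was -1.24 (SE 0.38). Stk39 measured 15.00, 14.48, 14.36, 13.12 and 13.85 in ank NP and 15.87, 15.67, 15.11, 15.67 and 14.62 in WT NP, with ank 31 above WT 59 and the rest separate (difference -1.23, SE 0.38). Both are on the list of osmotic adaptation, of which 10 of 14 genes were tested and 2 were lower at the thresholds (2.81% of all genes were). Among 23 tested adhesion genes 2 were lower at the thresholds, against 2.81% of all genes. They were Tln2, a talin that links integrins to actin (-0.95), and Fermt2, an integrin activator (-0.97). Galnt3, a glycosyltransferase that protects the phosphate hormone FGF23, was the only one of 8 tested pyrophosphate, phosphate and mineralization genes at the thresholds (-0.87). Over all genes 2.81% were lower, and the list's median was 0.04 (0.15 without ank 34 and ank 48).

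Ribosomal and proteasome genes lay near the average of all genes. Of 62 tested ribosomal protein genes, Rps15 alone was lower at the thresholds (-0.97), where 2.81% of all genes were, and the median was -0.12. Of 31 tested proteasome subunits none was at the thresholds, and neither was any tested gene of the unfolded protein response, heat shock, senescence, cell cycle, cholesterol synthesis or TGF-beta and BMP lists. These counts use all 10 arrays.

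**Figure D3:**
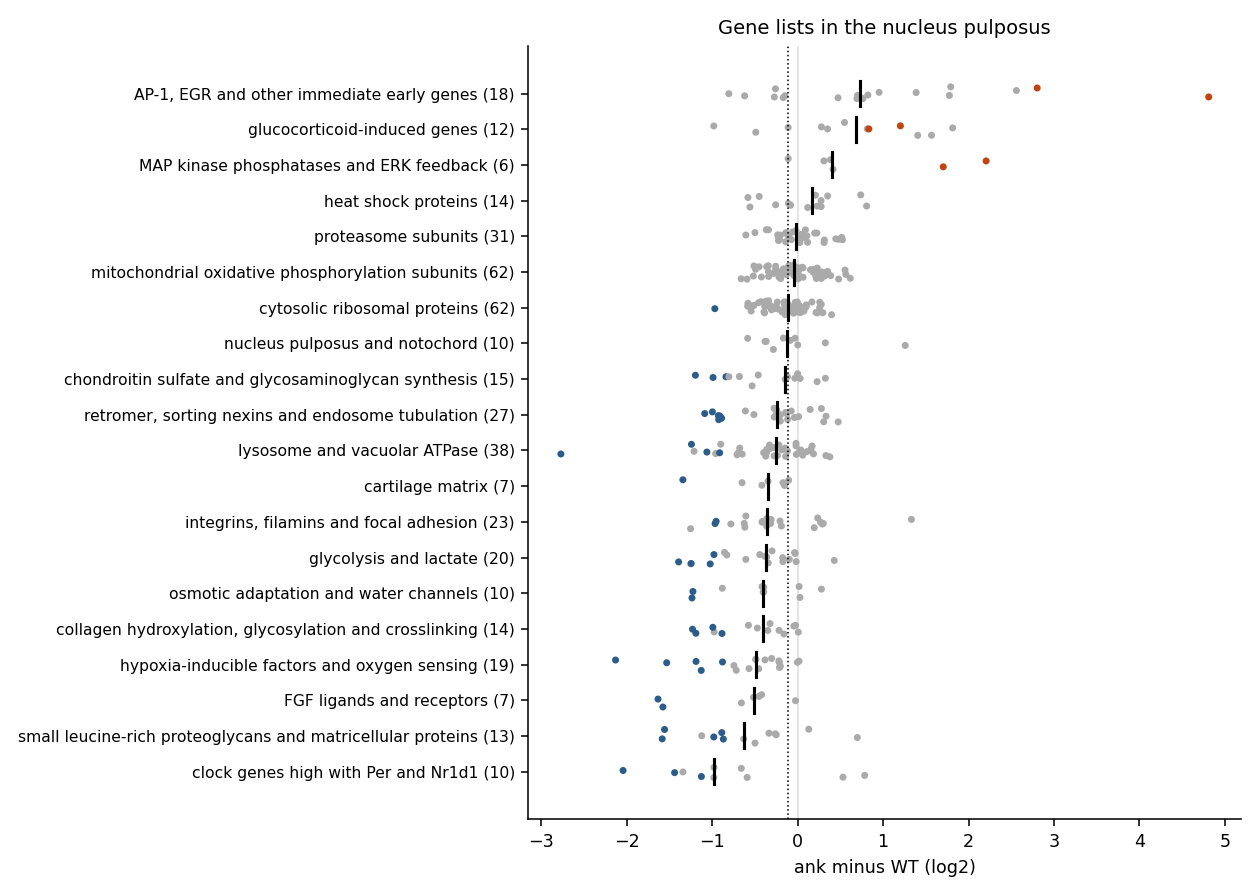
Each point is 1 tested gene of a list, placed by its ank minus WT difference (log2), with lists ordered by their median (black bar) and the number of tested genes in parentheses. Orange and blue points were higher and lower at the thresholds, and the dotted line is the median of all 6341 genes (-0.11). Among the lists drawn, the immediate early list lies farthest right and the Per and Nr1d1 list farthest left. Not every list is drawn, and the osteoblast and osteocyte list (4 genes tested) had a lower median, -1.19. Those 4 were Col1a1, Col1a2, Pth1r and Fam20c, while Bglap, Sp7 and Ibsp were not tested. The list averaged 11.15 in WT 55 and 10.07 in WT 32. It averaged 8.08 to 8.62 in the other WT arrays and 7.66 to 8.78 in ank arrays.

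The higher genes of largest size were immediate early genes, transcription factors switched on within minutes of a stimulus by MAP kinase signalling, and the phosphatases that shut that signalling off. They were high in some ank mice and not in others. Fosb, an AP-1 subunit, measured 7.88, 7.62, 16.46, 17.42 and 13.22 in ank NP, against 7.01, 8.53, 7.06, 6.88 and 9.05 in WT NP. Ank 39, 41 and 48 stood far above all WT arrays, while ank 31 and 34 were at the WT level, so the difference of 4.81 had an SE of 1.62. Myc measured 8.81, 9.54, 13.13, 16.98 and 12.01 in ank NP and 10.77, 8.01, 8.80, 8.90 and 9.97 in WT NP, with the same 3 ank mice above all WT mice (difference 2.80, SE 1.18). Egr1 and Fos, the best known members of this class, did not reach the thresholds. Egr1 measured 13.34, 8.24, 19.30, 16.31 and 10.79 in ank NP and 12.25, 9.89, 8.44, 11.27 and 13.32 in WT NP, and Fos, named after its values were seen, measured 8.13, 7.63, 18.13, 12.43 and 7.76 in ank NP and 11.03, 7.43, 6.45, 8.40 and 11.87 in WT NP. Both were extreme in ank 39 and high in ank 41, and WT 32 and WT 59 were above the remaining WT arrays. The limma p was 0.140 for Egr1 and 0.327 for Fos.

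Of 26 immediate early genes, 18 were tested and Fosb and Myc were higher at the thresholds, against 0.505% of all genes, with a list median of 0.73. Without ank 39 the median was -0.07, without ank 41 it was 0.44 and without WT 33 it was 0.43, and without ank 34 and ank 48 together 6 genes were at the thresholds. Averaged over those genes, the arrays read 9.20, 8.48, 13.06, 11.78 and 8.90 in ank NP and 10.02, 8.01, 8.79, 9.50 and 10.31 in WT NP, so that ank 39 and ank 41 alone exceeded WT 59. The list's median was 1.67 in females and -0.93 in males, 1.18 in the first spike-in set and 0.13 in the second, and 1.38 without ank 34 and ank 48. Dusp5, a phosphatase that turns off nuclear ERK, measured 8.62, 7.74, 8.30, 13.36 and 10.63 in ank NP and 7.52, 7.27, 7.70, 7.99 and 7.15 in WT NP. All ank arrays but ank 34 lay above every WT array, and Dusp5 kept its call through all leave-outs (difference 2.21, SE 0.82). Dusp6, its cytoplasmic counterpart, differed by 1.70 (SE 0.73), highest in ank 41 at 12.26 and lowest of all arrays in ank 34 at 6.64. Of the 12 tested glucocorticoid-induced genes, 2 were higher at the thresholds, against 0.505% of all genes. They were Cebpd (1.202), a stress-induced transcription factor, and Fkbp5 (0.83), a chaperone of the hormone receptor. This list's median was 0.68, with 0.83 in females and 0.12 in males. It was 0.79 in the first spike-in set and 0.03 in the second. The metallothionein genes Mt2 and Mt1 differed by 1.81 and 1.40 without reaching the thresholds. None of the 3 windows available for Fosb, Dusp5 and Dusp6 held the AP-1 site TGACTCA, present in 4.46% of all windows.

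**Figure D4:**
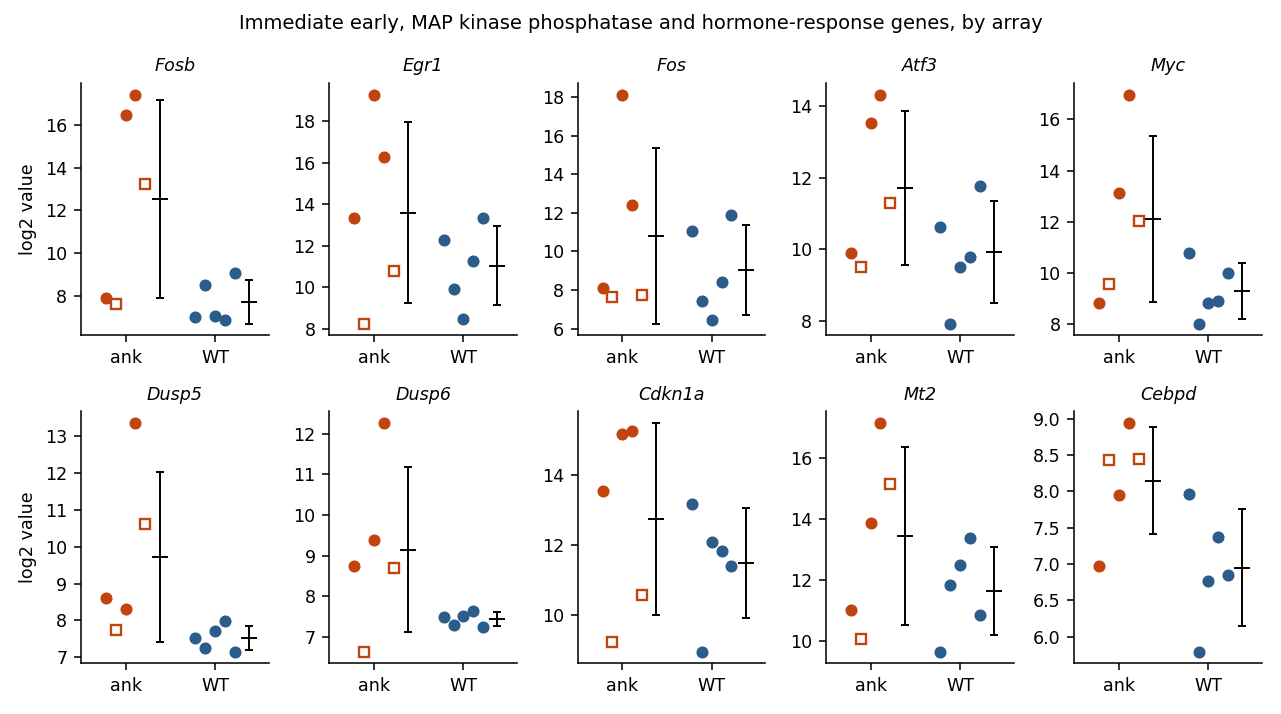
Log2 values of 10 immediate early, phosphatase and hormone-response genes, ank arrays on the left and WT arrays on the right of each panel, with mean ± SD (n = 5 each) as black bars and ank 34 and ank 48 as open squares. Fosb and Myc are high in 3 of 5 ank mice, and Egr1 and Fos are highest in ank 39.

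The remaining higher genes were mostly dim. Without overlap were Pdcd2 (0.87), linked to ribosome assembly, and the hair keratin-associated genes Krtap3-2 and Krtap3-3 (0.96 each), whose values were identical in every array and which count as 1 signal. Krtap3-2 and Krtap3-3 exceeded background in 4 of the ank arrays and in 1 WT array. Pdcd2 measured 8.57, 8.98, 8.35, 9.96 and 8.69 in ank NP and 8.09, 7.82, 8.30, 7.92 and 8.05 in WT NP, with ank 39 and WT 53 nearly equal. Genes kept at the thresholds in all leave-outs also included 2900060B14Rik (1.69), Zfp870, a zinc finger gene (1.28), the sulfotransferase Gal3st2 (1.13), Gm826 (1.11), EU599041 (1.10) and the odorant receptor Olfr497 (0.99). 2900060B14Rik measured 13.87, 11.36, 14.39, 13.15 and 14.15 in ank NP and 12.11, 10.95, 11.87, 12.78 and 10.75 in WT NP, where ank 34 alone lay within the WT range. Slc11a2, the iron importer DMT1 (0.98), was the only one of 14 tested iron and metal genes at the thresholds, where 0.505% of all genes were higher.

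Consistency across arrays was assessed for all 210 genes. Of the 178 lower genes, 86 had at least 4 ank arrays below every WT array, and of the 32 higher genes, 12 had at least 4 ank arrays above every WT array. When each array was left out in turn, 60 lower and 10 higher genes met the thresholds every time, and 91 and 14 did so in at least 8 of the 10 leave-outs. Lepr, Adm, Hk2, Pfkl, Egln3, Sparc, Xylt1, P4ha2, Nr1d1 and Dbp were among the 60, and Fosb and Dusp5 among the 10. Without ank 34 and ank 48 together, Egln3 (-1.14), Xylt1 (-0.77) and Nr1d1 (-1.52) lost their call, and the others of these kept it. Several genes described above lost their call with single arrays. Anp32a, Uhrf2, Tln2 and Rabgap1l lost it without WT 53, Pdk1 without ank 48, Cacybp without WT 59, Cebpd without WT 33 and Pdcd2 without ank 41. Snx9 lost it without WT 53 or ank 41, Stxbp6 without WT 53 or ank 48, Loxl3 without WT 53 or ank 34, Epas1 without WT 55 or ank 41, Snx5 without WT 55 or ank 34, and Atp6v0b without ank 41 or ank 48. Bnip3l and Pgam1 lost it without WT 32, WT 53 or ank 48, Col1a1 without WT 32, WT 55 or ank 41, Slc35d2 without WT 55, ank 34 or ank 48, and Galnt3 without WT 33, WT 53 or ank 31. The least stable of the named genes, each lost in at least 4 leave-outs, were Vps35, Thbs2, Bhlhe41, Chsy3, Ogn, Snx27, Fmod, Hexa, Fermt2, Colgalt1, Colgalt2, Rps15, Myc, Dusp6, Fkbp5 and Slc11a2. Leaving out WT 53 reduced the lower genes to 94, of which 90 were also lower with all arrays, and leaving out ank 48 reduced them to 103, of which 93 were, while leaving out ank 39 gave 321. Higher genes numbered 61, 67 and 104 without ank 31, ank 34 and ank 41, and 54, 64 and 22 without WT 32, WT 33 and WT 55.

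The genotypes did not separate as wholes. The mean Euclidean distance between arrays over the tested genes was 78.16 between arrays of unlike genotype and 78.10 between arrays of like genotype, which is 0.058 more for unlike pairs (p = 0.992, two-sided, by an exact permutation test over all labellings of the arrays). The first 3 principal components held 34.1%, 21.3% and 11.6% of the variance, and both genotypes spanned the first, from -35.39 to 46.27 for ank and from -36.54 to 19.997 for WT. The extremes on that axis, ank 48 and ank 34 at one end and ank 41, ank 39, WT 53 and WT 32 at the other, were also the arrays of lowest and highest control AUC. Correlations between arrays were 0.834 to 0.959 within a genotype and 0.860 to 0.961 between genotypes.

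The AF of the same mice gave a second reading of these genes. Of 116 lower NP genes also tested in AF, 48 lay below WT there, and of 22 higher NP genes 21 lay above WT. The AF values may have been normalized apart from NP. The median ank minus WT difference over all AF genes was 0.28, so that most genes there lay above WT. The counts of 48 and 21 therefore cannot be read by themselves as disagreement or agreement between the tissues. In a test of the NP minus AF difference within each mouse over 3902 genes, none passed an adjusted p of 0.05 by limma (0%, smallest 0.80), and 193 had an unadjusted p under 0.05 where 195.1 would by chance. That number depended on single mice, at 524, 83, 102 and 65 without ank 31, 34, 41 and 48, and 529 and 88 without WT 33 and WT 53.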

How the data were processed

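RNA of NP and AF from 5 ank and 5 WT mice was hybridized to Clariom S arrays for mouse. The deposited values are log2 expression levels that the authors made with the sst-rma algorithm of the Transcriptome Analysis Console, as named in the submitters' processing notes, so the depth of measurement is set by the number of arrays. The study's detection filter was not used here. Of 28846 probe sets, 22206 measured genes or transcripts and 19572 had a single symbol; for 55 genes with several, the one of highest mean was kept. NP arrays were fitted with limma 3.58.1 in R 4.3.3 (lmFit, eBayes, two-sided), without covariates and with Benjamini-Hochberg adjustment over 6341 genes. The scripts were tested on simulated data.

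Mouse numbers pair NP and AF of 1 animal, and the NP minus AF difference was fitted within mice. No number is shared between genotypes. The alternatives were other filters, scalings, tests, covariates, subsets and left-out arrays. The genes and gene lists were chosen with earlier results of these data known. Named genes were those without overlap, those kept through every leave-out, those named in the study and the 4 of lowest p on each list. Bnip3l, Hexa, Stxbp6, Ogn, Snx5, Acan, the receptor genes apart from Olfr497 and the neighbours of Man2b1 were added after their values were seen. Promoters were RefSeq sequences, and plots were drawn with matplotlib 3.10.9.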

Additional observations from a re-analysis of the deposited data

Results flagged for a closer look

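Among 146 groups of 5 arrays examined for the named genes, 9 held 1 array that stood apart by Dixon's criterion (gap over range above 0.71), and chance alone would mark about 1 group in 20. WT 53 stood above the other WT arrays in 4 genes that were lower in ank NP. Epha4 read 12.63 in WT 53 and 11.06 to 11.34 in the others, Anp32a 15.86 against 14.24 to 14.70, Snx9 12.37 against 11.71 to 11.88, and Fgfr3 12.90 against 10.40 to 11.09. Ank 48 stood below the other ank arrays in Jmjd8 (7.58 against 9.05 to 9.46) and Pgam1 (8.12 against 9.57 to 9.89). Colec12 read 13.05 in ank 31 and 12.48 to 12.64 in the other ank arrays, and Col1a1 read 7.40 in ank 41 and 8.29 to 8.51 in the others. Olfr497, an odorant receptor, read 7.52 in WT 55 and 6.80 to 6.93 in the other WT arrays.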

How the results depend on the processing

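With 1 exception, added after seeing the data, no alternative gave a gene that passed an adjusted p of 0.05. The alternatives were fitted by limma or by a plain t-test for each gene. The exception was leaving out ank 34 and ank 48, after which 1 gene passed by limma, Man2b1 (difference -3.83, adjusted p = 0.0327, not above background in any of the ank arrays left), with 72 genes higher and 79 lower at the thresholds. The 32 higher genes became 162 with no filter on dim genes, 21 with a stricter filter and 134 with antigenomic background. They numbered 65 after quantile normalization and 63 after median centring. They were 15 with the plain t-test, 59 with array weights and 86 with AUC as a covariate. Subsets gave 120 higher genes within the second spike-in set, 125 in males and 79 in females. The 178 lower genes became 251 with no filter, 141 with the stricter filter and 245 with antigenomic background. They numbered 131 after quantile normalization and 150 after median centring. They were 117 with the plain t-test, 276 with array weights and 164 with AUC as a covariate. Subsets gave 83 lower genes within the second spike-in set, 475 in males and 85 in females. Leaving out 1 array gave 22 to 104 higher and 94 to 321 lower genes, with 0 passing the adjusted p each time. The difference in distance between genotypes turned to -0.71 with no filter, and ran from -3.36 to 3.69 over the leave-outs. Of the named genes at the thresholds, Fam135b changed sign in males, to 0.0746. Named genes short of the thresholds could change sign too. Clock lay below WT with all arrays and differed by 0.26 (SE 0.44) without ank 34 and ank 48. The causes of these changes were not tested. On the pairing of NP with AF by mouse, the fit without the mouse as a block gave 0 genes whose effect differed between tissues and 177 at an unadjusted p under 0.05, against 193 with it. Precision is limited by 5 arrays a genotype, by 2 arrays of low control AUC in the ank group, and by signal over background: 36 of the 178 lower genes were above background in fewer than 3 ank arrays.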

Other observations

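Man2b1 and Vps35 are next to each other in RefSeq order among the tested genes of chromosome 8, with Orc6 following. These genes were looked at together after their values were seen. Man2b1 measured 6.01, 8.02, 6.95, 6.68 and 10.38 in ank NP and 11.45, 10.09, 10.66, 8.96 and 10.74 in WT NP. Of these Man2b1 values, those of ank 31, 34, 39 and 41 were not above their arrays' background, so no order can be read among them, while ank 48 lay within the WT range. For Vps35, which was above background in every NP array, ank 31, 39 and 41 were the lowest of the 10 arrays, ank 34 was next, and ank 48 was above all WT arrays. Orc6, a subunit of the origin recognition complex, measured 6.70, 8.33, 6.49, 7.21 and 9.39 in ank NP and 8.96, 8.03, 7.85, 6.79 and 7.99 in WT NP, highest in ank 48, and it was above background in 3 of the ank arrays and 4 WT arrays. In the AF of the same mice Man2b1 measured 5.14, 8.65, 5.95, 6.48 and 10.07 in ank AF, where ank 31, 39 and 41 were again not above background, against 7.23, 8.596, 7.001, 8.52 and 7.77 in WT AF. For Vps35 the AF values were 6.26, 9.75, 7.42, 9.15 and 11.72 in ank mice and 9.10, 8.39, 7.71, 8.09 and 9.86 in WT mice. Among the nearest tested genes on either side, Tnpo2 differed by -0.60, Dhps by -0.22, Itfg1 by 0.10 and Phkb by -0.99 in NP, and by -0.51, 0.43, -0.25 and -1.14 in AF.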
